A study of Homo sapiens with 34 samples.

Results

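The 34 genes described here encode calcium, potassium, HCN and TRPM4 channels and auxiliary subunits of calcium, sodium and potassium channels that carry or shape the cardiac action potential. They were taken by gene symbol from a table of raw reads per RefSeq accession, using the accession row with the largest total for each gene. All 34 symbols had a row, of 23185 gene symbols in the table. The study differentiated H1 human embryonic stem cells, an established line, towards cardiomyocytes with the GSK3 inhibitor CHIR99021, then the Wnt inhibitor IWP2, then insulin, and sequenced total RNA at days 0, 2, 6 and 10. Each line carried a lentivirus that stays in the genome. WT cells, the controls, carried either an empty vector or an shRNA to GFP, and the other 3 lines an shRNA against the transcription factor NKX2-5, ZEB2 or ZNF503. Each knockdown line used the vector that worked best among those tried for its gene, so a line and its shRNA cannot be told apart. For ZNF503 shRNA the last day analysed here was day 6. The labels define 34 libraries in 15 groups. At day 10 only replicates 3 and 4 of WT and ZEB2 shRNA were used, which left 30 libraries, 2 in each group.

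Contraction of a cardiomyocyte starts with an action potential. HCN channels let the membrane drift towards threshold in pacemaker cells, a fast sodium current gives the upstroke, L-type calcium channels (CACNA1C, CACNA1D) hold the plateau and trigger calcium release, and potassium channels repolarise the cell. Pore subunits form the ion path, whereas beta, alpha2delta, KCNE and KChIP subunits set the number of channels at the surface and how they open and close. Immature cardiomyocytes made from stem cells beat by themselves, and are known for strong pacemaker currents and little of the Kir2 current that clamps the resting membrane of adult ventricular cells.

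Total counts over the rows kept, 1 per gene, ran from 9189588 to 90798116 per library. Day 10 had the lowest range, at 9189588 to 29548573. Levels are in CPM, counts per 1000000 of these totals, scaled with edgeR's TMM factors. A total of 3 counts, the limit used here for a gene listed at 0, was worth 0.033 to 0.327 CPM before TMM factors. Such limits cover counting error only. The study calls the libraries of a group biological replicates. The p-values measure the spread between the 2 libraries of a group, pooled over all groups of a fit. At day 10 the pool includes the NKX2-5 shRNA pair, the most uneven. Its chi-square per gene against counting noise was 102, against 13.3 in ZEB2 shRNA and 20.3 in WT. NKX2-5 itself was at 84.2 and 50.5 CPM in WT at day 6 and at 0.993 and 0.761 in NKX2-5 shRNA cells, 1.30% of the WT mean, and it was at 1.38% of the WT mean at day 10. ZEB2 was at 96.8 and 94.1 CPM in WT at day 6 against 54.6 and 57.1 in ZEB2 shRNA cells, 58.5% of WT, and at 49.5% of WT at day 10. ZNF503 was at 8.71 and 9.34 CPM in WT at day 6 against 0.611 and 0.648 in ZNF503 shRNA cells, 6.98% of WT. At days 0 and 2 ZEB2 and ZNF503 shRNA cells held 66.4 to 127% of the WT mean of their target, and the target was below 2 CPM in WT except for ZEB2 at day 2, so the labels of those libraries could hardly be checked. The summed level of 8 cardiomyocyte markers (TNNT2, TNNC1, MYH6, MYH7, MYL7, MYL4, ACTN2 and TNNI1) was 4.62 and 6.18 CPM in WT at day 0, 13082 and 10281 at day 6 and 18411 and 15039 at day 10, and none of the 8 was at 0 in either day 10 library. In bulk RNA, fewer cardiomyocytes and less channel RNA in each cardiomyocyte cannot be told apart.

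The WT course answers which channel genes came on during differentiation. The summed level of the 34 genes was 246 to 259 CPM at day 0, 291 to 298 at day 2, 376 to 416 at day 6 and 1416 to 1698 at day 10. Against day 0, 17 of 34 passed edgeR's quasi-likelihood test at 5% FDR (Benjamini-Hochberg over all genes tested) at day 2, with 9 higher and 8 lower, against 21.0% and 23.1% of all genes tested. At day 6, 30 passed, 18 higher and 12 lower, against 31.3% and 29.6% of all genes. At day 10, 27 passed, of which 23 were higher and 4 lower. Among all genes 39.1% were higher and 34.7% lower. With the study's own threshold of 8-fold and 1% FDR, 16 members were higher at day 10 and 1 was lower, against 10.0% and 5.45% of all genes. The median log2 difference between day 10 and day 0 was 2.76 over the 34 members and 0.10 over all genes tested. KCNE4, KCNA4 and ABCC8 had 3 counts or fewer in a group. Giving them their bound or ratio left each on its side of the median, so the median could not move. A comparison list held 64 other channel subunits. Like the members, it was chosen with earlier results of these data known. Of the 64, 62 were tested at day 10, 24 were higher and 21 lower, with a median of -0.13.

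**Figure D1:**
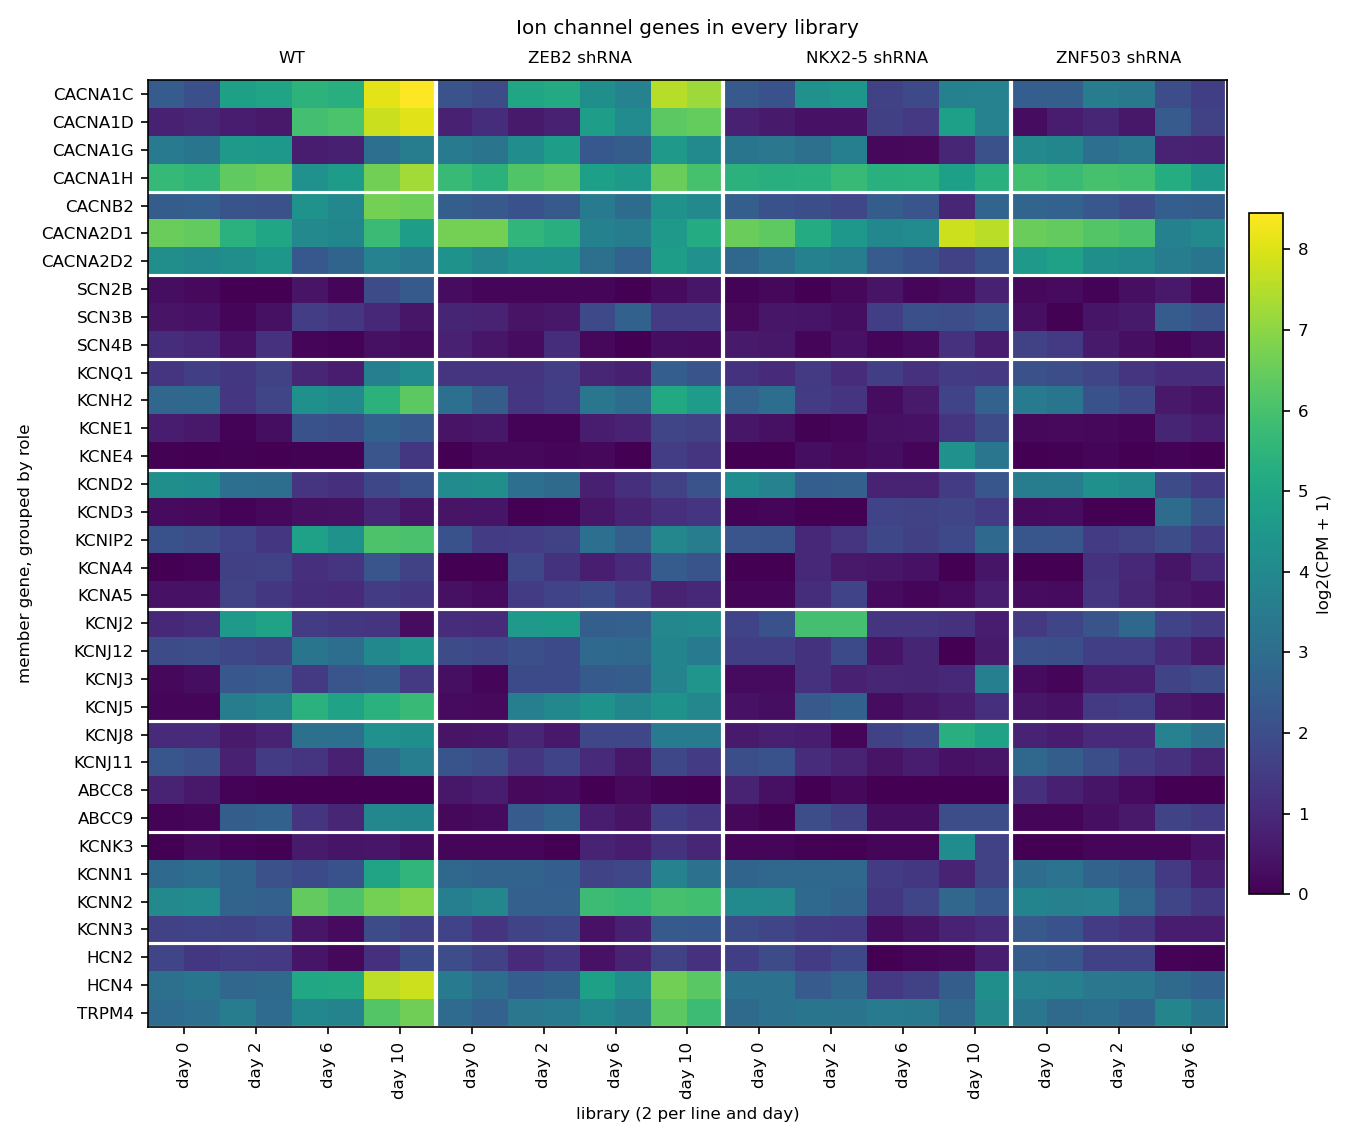
Level of each of the 34 genes (rows, grouped by role, white lines between roles) in each of the 30 libraries (columns, 2 per line and day), as log2(CPM + 1) by colour. CACNA1C, CACNA1D and HCN4 are brightest in WT at day 10, where they exceed 190 CPM in both libraries, and the NKX2-5 and ZNF503 shRNA columns stay dark at day 6 for most genes that are bright in WT.

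The L-type pores CACNA1C and CACNA1D had the largest rises in CPM of the 34 genes. CACNA1C, the main pore of the cardiac L-type current, was at 4.46 and 3.17 CPM at day 0, at 26.7 and 29.4 at day 2, at 43.1 and 38.9 at day 6 and at 274 and 349 at day 10. Every later library lay above both day 0 libraries, and the log2 change to day 10 was 6.41 ± 0.20 (SE, n = 2 per group, adjusted p = 2.78e-09, edgeR). CACNA1D, the L-type pore that opens at more negative voltages and serves the sinoatrial node, was at 0.694 and 0.890 CPM at day 0 and at 0.611 and 0.491 at day 2. It then reached 60.2 and 66.2 CPM at day 6 and 219.6 and 271 at day 10, a log2 change of 8.32 ± 0.19 from day 0. Of CACNA1D's exon bases in the GRCh37 annotation, 14.9% also lie in CHDH on the other strand, and the sources do not state whether reads were counted by strand. CACNB2, the beta subunit that brings the L-type pore to the membrane, was at 4.59 and 4.81 CPM at day 0, 18.9 and 14.5 at day 6 and 102 and 96.1 at day 10, a log2 change of 4.46 ± 0.17. CACNA2D1 and CACNA2D2, which encode alpha2delta subunits of calcium channels, were already high at day 0. CACNA2D1 went from 91.2 and 84.9 CPM at day 0 to 14.7 and 13.8 at day 6 and 53.5 and 24.9 at day 10, and was lower than at day 0 at both of these days.

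The T-type calcium channel genes dipped at day 6. CACNA1G, a T-type pore active in pacemaker tissue, was at 10.2 and 8.66 CPM at day 0, 22.5 and 21.8 at day 2, 0.563 and 0.674 at day 6 and 7.58 and 10.6 at day 10. The day 6 pair lay below every other WT library, with a log2 change from day 0 of -3.87 ± 0.26, and the change from day 6 to day 10 was 3.86 ± 0.27. CACNA1H, the other T-type pore, followed a shallower course, from 49.8 and 45.7 CPM at day 0 to 18.5 and 23.7 at day 6 and 98.7 and 153 at day 10. A comparison of day 10 with day 6 in WT, added after the levels were seen, found 24 of 34 members higher and 0 lower at 5% FDR, against 28.3% and 29.2% of all genes. At an unadjusted p under 0.05 it was again 24 members, and DESeq2 called 23 higher and 0 lower. Over the same interval 4 of the 8 cardiomyocyte markers were higher and 0 lower, with a median log2 change of 0.49, against 1.71 over the 34 channel genes and -0.01 over all genes. The largest of these late changes were in KCNQ1 at 4.30 ± 0.36, SCN2B at 4.14 ± 0.67, CACNA1G, KCNN1 at 3.64 ± 0.30 and ABCC9 at 3.63 ± 0.30, apart from KCNE4, which had 2 counts in all at day 6.

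HCN4, the main pacemaker channel of the sinoatrial node, was at 7.66 and 8.74 CPM at day 0, 32.0 and 34.5 at day 6 and 194 and 225 at day 10. The log2 change from day 0 was 4.73 ± 0.14 (adjusted p = 1.79e-09, edgeR), and the 3 pairs of libraries did not overlap. HCN2, a second pacemaker isoform, was at 2.43 and 1.60 CPM at day 0 and at 1.24 and 2.69 at day 10. It did not pass the test at day 10, although it was lower at day 6, at 0.390 and 0.144. TRPM4, a calcium-activated cation channel of conduction tissue, went from 6.78 and 7.41 CPM to 14.3 and 12.6 at day 6 and 72.3 and 97.4 at day 10, a log2 change of 3.64 ± 0.24.

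Among repolarising channels, genes of the rapid and slow delayed rectifiers rose at different times. KCNH2, the pore of the rapid delayed rectifier known as hERG, fell from 5.87 and 6.23 CPM at day 0 to 1.54 and 2.39 at day 2 (a call lost without WT day 2 replicate 1), and then reached 18.1 and 15.5 at day 6 and 42.6 and 78.4 at day 10. KCNQ1, the pore of the slow delayed rectifier, was at 1.41 and 1.99 CPM at day 0, fell to 0.867 and 0.577 at day 6 (a call lost without WT day 0 or day 6 replicate 2) and rose to 11.4 and 15.8 at day 10, when its log2 change from day 0 was 3.05 ± 0.32. KCNE1, its beta subunit, was at 0.560 and 0.497 CPM at day 0, 3.38 and 3.10 at day 6 and 5.15 and 4.30 at day 10, so KCNE1 was up at day 6 while KCNQ1 was down. Of KCNE1's exon bases, 97.2% also lie in other annotated genes on the same strand, which makes its counts uncertain. KCNE4, a KCNE subunit that inhibits KCNQ1 channels, had 1 count over both day 0 libraries and 87 at day 10, at 3.71 and 1.61 CPM. That is a 229-fold ratio with a 95% exact counting interval of 40.1 to 9164.

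The transient outward genes moved apart. KCNIP2, the KChIP2 subunit that sets the size of this current, rose from 3.42 and 2.96 CPM at day 0 to 27.3 and 18.9 at day 6 and 67.6 and 63.6 at day 10, a log2 change of 4.42 ± 0.23. KCND2, a pore of the same current, fell from 17.4 and 16.3 CPM to 1.43 and 1.20 at day 6 and 2.58 and 3.33 at day 10, a log2 change of -2.48 ± 0.23. KCND3, the other pore, stayed under 1 CPM in all 8 WT libraries, and its call at day 10 was lost without WT day 0 replicate 1 or 2 or WT day 10 replicate 3. KCNA4, a fast-inactivating Kv1 pore, had 2 counts at day 0 and was at 2.06 and 2.21 CPM at day 2 and 3.71 and 2.15 at day 10, a 121-fold ratio with a counting interval of 32.6 to 1017. KCNA5, the pore of the atrial ultrarapid current, was at 0.320 and 0.340 CPM at day 0, 2.12 and 1.59 at day 2 and 1.86 and 1.51 at day 10.

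Within the inward rectifiers, the atrial GIRK genes came on by day 2 and stayed, whereas KCNJ2 came on and went. KCNJ5, a GIRK subunit of the acetylcholine-activated current, was at 0.107 and 0.105 CPM at day 0, 10.8 and 12.7 at day 2, 41.0 and 28.1 at day 6 and 41.1 and 51.5 at day 10. Its log2 change to day 10, 8.77 ± 0.35, was the largest of the members with more than 3 counts in both groups (adjusted p = 1.26e-08, edgeR). KCNJ3, its partner subunit, was at 0.133 and 0.236 CPM at day 0 and at 3.89 and 4.42 already at day 2, with 4.28 and 1.72 at day 10. KCNJ2, the main Kir2 pore of the resting potassium current, was at 0.961 and 1.15 CPM at day 0, at 22.8 and 28.1 at day 2, at 1.82 and 1.61 at day 6 and at 1.39 and 0.215 at day 10. The day 2 pair was thus far above all other WT libraries, with a log2 change of 4.63 ± 0.38 from day 0, and KCNJ2 passed the test against day 0 at neither later time. KCNJ12, another Kir2 pore, rose from 2.78 and 2.98 CPM to 14.3 and 19.8 at day 10. It has a nearly identical copy, KCNJ18, with which reads may be shared.

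The ATP-sensitive potassium channel pairs a Kir6 pore with a sulfonylurea receptor, and the genes lie next to each other: KCNJ8 and ABCC9 are 21.8 kb apart on chromosome 12, and KCNJ11 and ABCC8 are 3.17 kb apart on chromosome 11 (GRCh37). Both neighbours on chromosome 12 were higher at day 10 than at day 0, by different courses. KCNJ8 went from 1.07 and 1.05 CPM at day 0 to 0.515 and 0.736 at day 2, where it did not pass the test, 7.63 and 7.58 at day 6 and 18.2 and 17.4 at day 10. ABCC9, the receptor of the cardiac and vascular channel, went from 0.0534 and 0.0785 CPM to 4.63 and 5.15 at day 2, 1.47 and 0.890 at day 6 and 14.1 and 13.7 at day 10, so that ABCC9 was up at day 2 and KCNJ8 only later. The log2 changes at day 10 were 4.13 ± 0.24 for KCNJ8 and 7.68 ± 0.42 for ABCC9. On chromosome 11 the neighbours parted: KCNJ11 rose from 3.74 and 3.22 CPM to 7.06 and 11.2, with its call lost without WT day 0 replicate 2 or WT day 10 replicate 4, whereas ABCC8, the receptor of the pancreatic beta cell channel, had 49 counts at day 0 and 0 at day 10, at least 6.19-fold lower against a limit of 3 counts over the group. The ABCC8 call was lost without WT day 10 replicate 3.

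The calcium-activated SK channels KCNN1, KCNN2 and KCNN3 feed calcium back onto repolarisation, and KCNN2 had the highest level per length of transcript of the members in WT at days 6 and 10. It was at 14.9 and 15.7 CPM at day 0, 5.50 and 5.03 at day 2, 85.6 and 67.4 at day 6 and 103 and 118 at day 10. KCNN1 stood at 6.33 and 7.25 CPM at day 0, 2.69 and 3.42 at day 6 and 29.9 and 45.8 at day 10. KCNN3 was at 2.16 and 2.28 CPM at day 0, dipped to 0.433 and 0.192 at day 6 and was at 2.89 and 2.15 at day 10. KCNK3, the TASK-1 leak channel, did not exceed 0.520 CPM in any WT library. Sodium channel beta subunits, which modulate the sodium current, were low throughout: SCN2B went from 0.240 and 0.157 CPM at day 0 to 2.78 and 4.30 at day 10, SCN3B lay between 0.0965 and 1.91 CPM, and SCN4B fell from 1.15 and 0.942 to 0.309 and 0.215, a call lost when any 1 of the 4 libraries was left out.

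**Figure D2:**
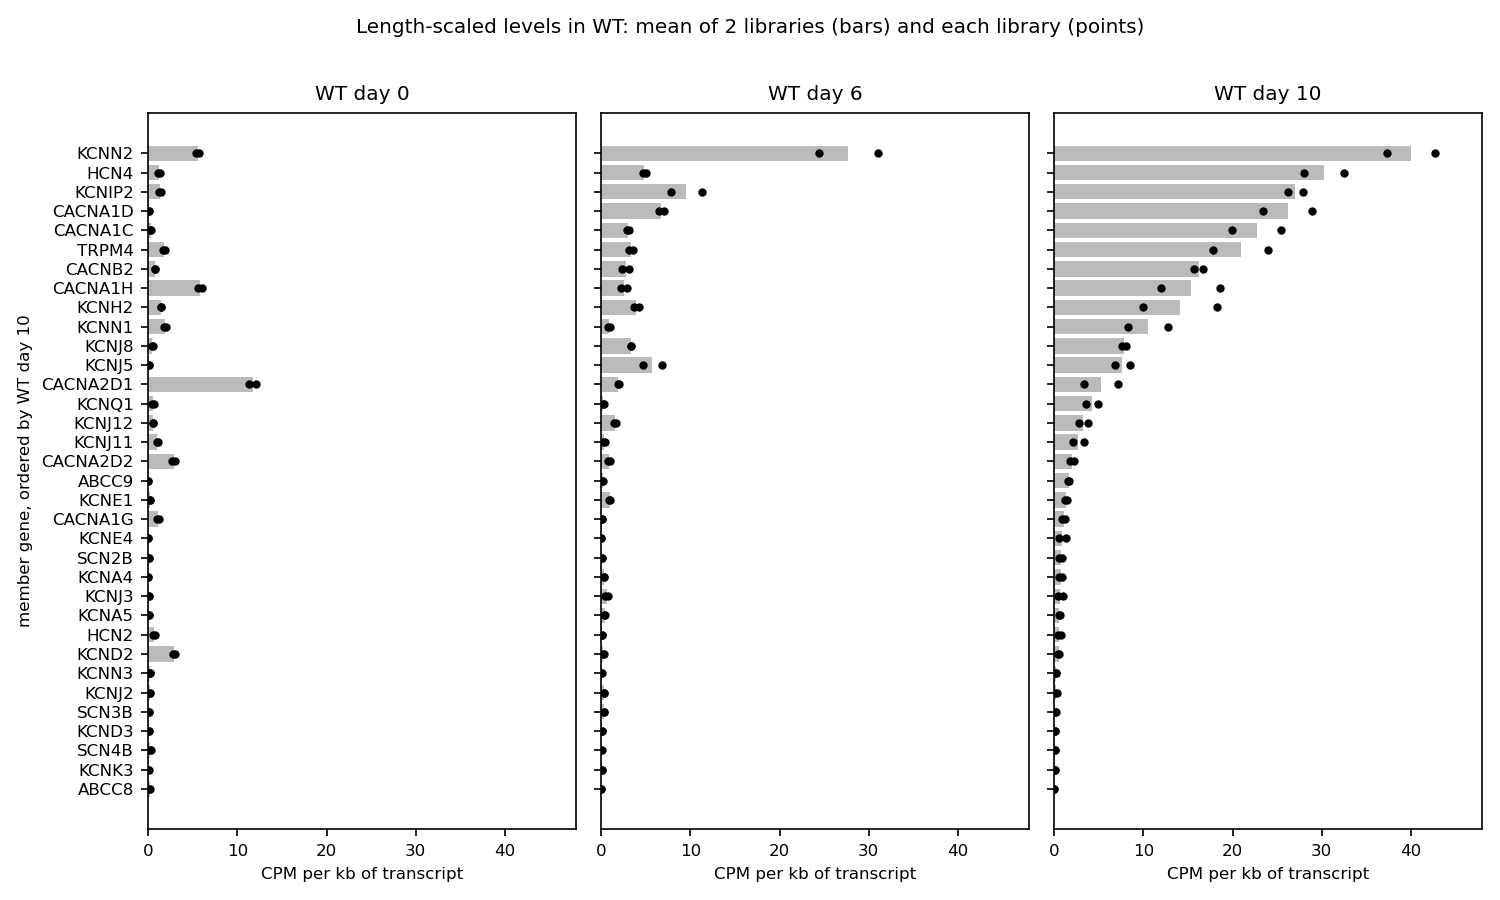
CPM per kb of transcript (x axis) for the 34 genes in WT at days 0, 6 and 10, with the mean of 2 libraries as bars and each library as a point, ordered by day 10. CACNA2D1 leads at day 0, and KCNN2 leads at days 6 and 10, followed at day 10 by HCN4, KCNIP2, CACNA1D and CACNA1C.

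On the length-scaled level, CPM per kb of the GENCODE canonical transcript, KCNN2 reached 40.0 in WT at day 10, HCN4 30.3, KCNIP2 27.0, CACNA1D 26.2 and CACNA1C 22.7. The lengths are those of 1 transcript per gene and may differ from the accession that was counted. At the other end, KCNJ2 was at 0.149 CPM per kb and KCNK3 at 0.0507, and ABCC8 was at 0. The median over the 34 genes was 1.80. At least 1 CPM in both libraries was held by 19 members at day 0, 23 at day 2, 22 at day 6 and 28 at day 10.

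For promoters, RefSeq windows of the 250 bases before the start (GRCh38.p14) were matched for 26 of the 34 genes. CACNA1G, CACNA1H, SCN3B, KCNQ1, KCNE4, KCNJ11, KCNJ12 and ABCC8 had none. Each window was searched on both strands for TNAAGTG, a letter pattern bound by NKX2-5, for CACCTG, the E-box bound by ZEB2 and by other E-box factors, and for AGATAA, bound by GATA factors. TNAAGTG was found in 2 of 42 member windows, 1 of CACNB2 and that of KCNJ8, against 8.7% of 35093 windows of all genes. CACCTG was found in 9 of 42 (21.4%, against 17.5%), in KCND2, KCND3, KCNH2, KCNN2, KCNN3, SCN2B and SCN4B, and AGATAA in 0 of 42 against 9.2%. The windows with TNAAGTG, and those of SCN2B and KCNN2 as 2 of the 9 with CACCTG, are shown first, with matches in capitals and all windows written along the gene's strand, followed by those of KCNJ5 and KCNJ2, which had none. The CACNB2 window is chr10:18340459-18340708 (plus strand, 1 of its 4 windows), that of KCNJ8 chr12:21774707-21774956 (minus), SCN2B chr11:118176640-118176889 (minus), KCNN2 chr5:114361820-114362069 (plus), KCNJ5 chr11:128891106-128891355 (plus) and KCNJ2 chr17:70169282-70169531 (plus).
CACNB2: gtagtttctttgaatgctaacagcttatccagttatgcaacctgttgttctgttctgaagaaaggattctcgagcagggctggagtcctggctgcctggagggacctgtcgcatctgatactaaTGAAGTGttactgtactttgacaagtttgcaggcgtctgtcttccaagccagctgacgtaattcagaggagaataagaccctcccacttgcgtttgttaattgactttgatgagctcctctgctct
KCNJ8: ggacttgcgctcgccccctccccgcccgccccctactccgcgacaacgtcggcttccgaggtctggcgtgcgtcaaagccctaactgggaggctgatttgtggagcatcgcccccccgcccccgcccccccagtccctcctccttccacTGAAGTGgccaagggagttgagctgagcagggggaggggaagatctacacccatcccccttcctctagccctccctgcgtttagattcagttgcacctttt
SCN2B: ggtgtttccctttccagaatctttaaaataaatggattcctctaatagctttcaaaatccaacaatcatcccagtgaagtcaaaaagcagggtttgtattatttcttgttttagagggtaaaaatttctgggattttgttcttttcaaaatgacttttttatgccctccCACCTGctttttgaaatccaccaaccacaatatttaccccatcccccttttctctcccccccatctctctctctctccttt
KCNN2: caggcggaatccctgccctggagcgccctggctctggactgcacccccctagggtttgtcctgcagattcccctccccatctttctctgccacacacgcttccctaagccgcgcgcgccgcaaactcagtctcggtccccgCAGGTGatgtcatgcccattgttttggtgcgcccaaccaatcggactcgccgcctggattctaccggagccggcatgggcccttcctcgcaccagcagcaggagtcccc
KCNJ5: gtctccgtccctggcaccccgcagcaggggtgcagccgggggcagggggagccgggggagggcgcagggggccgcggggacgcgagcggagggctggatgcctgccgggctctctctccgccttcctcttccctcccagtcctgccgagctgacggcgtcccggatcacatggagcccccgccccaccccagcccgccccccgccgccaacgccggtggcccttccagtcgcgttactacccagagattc
KCNJ2: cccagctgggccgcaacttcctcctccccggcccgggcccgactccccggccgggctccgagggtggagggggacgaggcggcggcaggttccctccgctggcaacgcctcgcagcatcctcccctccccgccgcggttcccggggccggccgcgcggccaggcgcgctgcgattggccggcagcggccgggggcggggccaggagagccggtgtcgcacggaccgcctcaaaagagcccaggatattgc
A match is a description of these letters and not a binding site, and its absence says only that the letters are not in this window.

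The next comparison sets the levels of the channel genes in NKX2-5 shRNA cells against those in WT. At day 6, 17 of 29 members tested were lower and 3 higher at 5% FDR, against 24.7% and 24.5% of all genes, and 10 were lower by the study's threshold (3.42% of all genes). KCNJ5 was at 0.221 and 0.441 CPM in NKX2-5 shRNA cells against 41.0 and 28.1 in WT, a log2 change of -6.59 ± 0.34. KCNH2 was at 0.221 and 0.521 CPM (log2 change -5.38 ± 0.34), and KCNN2 at 1.58 and 2.44 against 85.6 and 67.4 (-5.21 ± 0.24). CACNA1D was at 2.06 and 1.64 CPM (-5.12 ± 0.31) and CACNA1C at 2.10 and 2.66 (-4.09 ± 0.24), so that CACNA1C lay below the 4.11 and 3.39 CPM of the same line at day 0. HCN4 was at 1.62 and 2.18 CPM, against 8.14 and 7.81 at day 0. KCNJ12, KCNE1, KCNIP2 and KCNA5 completed the 10. The 3 that were higher were KCND3, at 2.24 and 2.14 CPM against 0.260 and 0.289 in WT, CACNA1H, at 40.2 and 41.5 against 18.5 and 23.7, and KCNQ1, a call lost without NKX2-5 shRNA replicate 1 or either WT replicate. All 8 cardiomyocyte markers were lower in the same libraries, with a median log2 change of -8.82 and a summed level of 85.7 and 103 CPM. All 6 hepatic and endoderm markers were higher, at a sum of 3126 and 3227 CPM against 323 and 658, and 3 of 4 smooth muscle markers were lower, at 154 and 221 against 1111 and 802. The part of these markers in the channel changes was not tested.

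ZNF503 shRNA cells at day 6 were compared with the same WT libraries, so their values are set beside those of NKX2-5 shRNA cells and are not independent of them. Here 12 of 29 members were lower and 3 higher, against 28.5% and 27.2% of all genes, and 7 were lower by the study's threshold (2.91% of all genes). KCNJ5 was at 0.509 and 0.324 CPM, KCNH2 at 0.509 and 0.324, KCNN2 at 2.44 and 1.58, CACNA1D at 4.32 and 2.15 and CACNA1C at 2.95 and 1.99. HCN4 was at 6.56 and 5.11 CPM, a log2 change of -2.52 ± 0.24 from WT. KCND3 was higher, at 6.87 and 3.61 CPM, a log2 change of 4.21 ± 0.46. Cardiomyocyte markers summed to 376 and 302 CPM, with 8 of 8 lower. Hepatic and endoderm markers summed to 2343 and 2478 CPM against 323 and 658 in WT, with 5 of 6 higher, and neural markers to 197 and 157 against 18.2 and 26.2, with 3 of 5 tested higher. The part of these lists was not tested. Set against each other, NKX2-5 shRNA was lower than ZNF503 shRNA at 8 of 29 members and higher at 0 (8.80% and 5.91% of all genes), 12 passed an unadjusted p under 0.05, and DESeq2 called 9 lower and 0 higher. The 8 were ABCC9, CACNA1G, KCNJ8, KCNJ3, HCN4, KCND2, CACNA2D2 and KCND3. ABCC9 was at 0.257 and 0.240 CPM against 2.29 and 1.78, a log2 difference of -3.02 ± 0.49, and was the 1 member past the study's threshold (0.395% of all genes). KCNJ8 was at 2.10 and 2.70 CPM against 12.3 and 7.86, a difference of -2.05 ± 0.27. HCN4 differed by -1.58 ± 0.26. The count was 4 without NKX2-5 shRNA replicate 1, 3 without NKX2-5 shRNA replicate 2 and 5 without ZNF503 shRNA replicate 1. ABCC9, KCNJ8 and HCN4 passed without each of the 4 libraries.

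At day 10, 22 of 33 members tested were lower in NKX2-5 shRNA cells and 6 higher, against 20.6% and 23.3% of all genes. By the study's threshold 12 were lower, against 2.85% of all genes, and 0 were higher (4.46% of all genes). DESeq2 called 13 lower and 1 higher by that threshold. CACNA1C was at 12.0 and 12.4 CPM against 274 and 349 in WT, a log2 change of -4.67 ± 0.24 (adjusted p = 0.000152, edgeR), and the groups were far apart. KCNJ5 was at 0.572 and 1.23 CPM against 41.1 and 51.5 (-5.67 ± 0.42), KCNN2 at 5.96 and 4.06 against 103 and 118 (-4.45 ± 0.27), and KCNN1 at 0.811 and 2.17 against 29.9 and 45.8 (-4.66 ± 0.52). KCNJ12 was at 0 and 0.520 CPM against 14.3 and 19.8 (-6.00 ± 0.86), a value that was -11.48 without replicate 2, which leaves the library at 0, and -5.01 without replicate 1. KCNJ11 was at 0.334 and 0.425 CPM, below the 3.11 and 3.35 of the same line at day 0. In CACNB2, HCN4 and CACNA1D the knockdown libraries differed from each other: CACNB2 was at 0.859 and 5.72 CPM in replicates 1 and 2, HCN4 at 4.68 and 17.3 and CACNA1D at 26.6 and 12.5. Replicate 2 also held more cardiomyocyte marker RNA, 441 CPM over the 8 markers against 114 in replicate 1, with TNNT2 at 39.9 and 1.34, and the part of these markers in the channel values was not tested. The count of 28 members was 18 without WT replicate 4, the shallowest library.

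The 6 members that were higher in NKX2-5 shRNA cells at day 10 were CACNA2D1, KCNE4, KCNJ8, KCNK3, SCN3B and KCND3. CACNA2D1 was at 221 and 191 CPM against 53.5 and 24.9 in WT, a log2 change of 2.39 ± 0.39, above every other library of the series. KCNE4 was at 18.3 and 8.98 CPM against 3.71 and 1.61 (2.32 ± 0.53). It had 0 counts at day 0 in these cells and 574 at day 10, at least 431-fold higher against a limit of 3 counts over the group. KCNJ8, the pore of the vascular ATP-sensitive channel, was at 39.2 and 28.5 CPM against 18.2 and 17.4, while its neighbour ABCC9 was lower, at 2.96 and 2.98 against 14.1 and 13.7 (-2.22 ± 0.34). KCNK3 was at 16.3 and 2.08 CPM in replicates 1 and 2, far apart, against 0.412 and 0.215 in WT. KCNJ3 was as uneven, at 0.954 and 11.6 CPM, and did not pass. Of these 6 calls, those of KCNE4, KCNJ8, KCNK3, SCN3B and KCND3 were lost without WT replicate 4, and that of CACNA2D1 was kept without each library. In the same libraries markers of other cell types stood above WT: hepatic and endoderm markers (AFP, TTR, APOA2, ALB, FOXA2, SOX17) summed to 38519 and 26944 CPM against 3598 and 1465, erythroid and platelet markers to 1428 and 1702 against 65.1 and 14.3, endothelial markers to 124 and 149 against 28.2 and 7.42, and fibroblast and epicardial markers to 1169 and 2062 against 294 and 359.9. No marker of these 4 lists was at 0 in both NKX2-5 shRNA libraries. Smooth muscle markers summed to 447 and 761 CPM against 885 and 609.8, with 0 of 4 higher and 1 lower. Neural markers summed to 84.7 and 181 CPM against 23.1 and 18.7, with 2 of 5 tested higher and 1 lower and a median log2 change of -0.79. The part of these lists in the channel values was not tested.

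**Figure D3:**
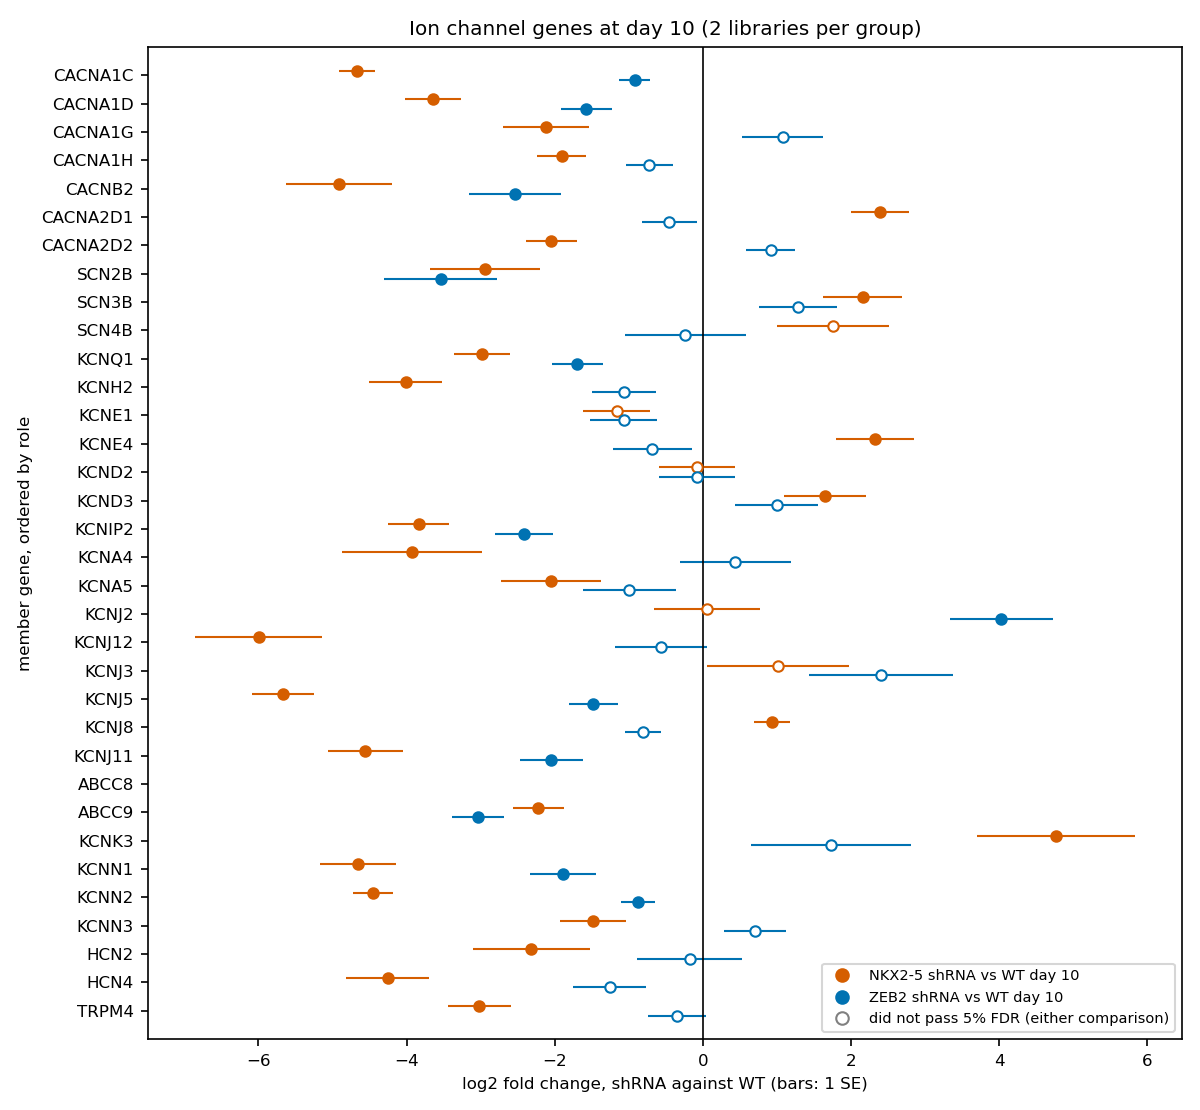
Log2 fold change against WT at day 10 (x axis, bars 1 SE) for the 33 members tested in NKX2-5 shRNA (orange) and ZEB2 shRNA (blue) cells, with filled points at 5% FDR. ABCC8 has no point. Filled orange points lie mostly left of 0, with 22 lower and 6 higher, and filled blue points are fewer, with 11 lower and KCNJ2 alone higher.

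Within NKX2-5 shRNA cells, 13 members were higher and 10 lower at day 10 than at day 0, against 36.1% and 33.1% of all genes. CACNA1D still rose in them, from 0.719 and 0.520 CPM to 26.6 and 12.5 (log2 change 4.98 ± 0.46), and so did CACNA1C, from 4.11 and 3.39 to 12.0 and 12.4 (1.71 ± 0.24). KCNN2, from 15.6 and 14.6 to 5.96 and 4.06 CPM, and KCNN1, from 5.54 and 6.25 to 0.811 and 2.17, fell. HCN4, at 8.14 and 7.81 CPM at day 0, did not pass the test.

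ZEB2 shRNA cells kept more of their target than the other lines did at day 6. At day 10 ZEB2 was at 49.5% of the WT mean in both libraries. This fall did not pass (adjusted p = 0.0793, edgeR) in the day 10 fit, whose spread is shared with the NKX2-5 shRNA pair. At day 6 the log2 change of ZEB2 against WT was -0.77 ± 0.12 in these cells, but -2.22 ± 0.13 in NKX2-5 shRNA and -3.01 ± 0.14 in ZNF503 shRNA cells, so ZEB2 RNA was not lowest in the line that targets it. At day 2, 0 of 28 members passed 5% FDR in edgeR's test, 2 passed an unadjusted p under 0.05 and DESeq2 called 0, against 0.490% of all genes. At day 6, 8 of 29 members were lower and 2 higher, against 5.33% and 5.67% of all genes. By the study's threshold 0 members were called in edgeR's test, against 0.462% of all genes. KCNE1 was at 0.566 and 0.738 CPM against 3.38 and 3.10 in WT (log2 change -2.37 ± 0.39), KCNIP2 at 7.56 and 4.94 against 27.3 and 18.9 (-1.84 ± 0.28), KCNJ8 at 2.48 and 2.51 against 7.63 and 7.58 (-1.61 ± 0.27), CACNA1D at 25.1 and 15.9 against 60.2 and 66.2 (-1.60 ± 0.25) and CACNA1C at 17.3 and 12.4 against 43.1 and 38.9 (-1.44 ± 0.21). In each of these 5 genes both knockdown libraries lay below both WT libraries. KCNH2, KCNJ5 and CACNB2 were the others that fell. Their calls, and that of KCNE1, were each lost without at least 1 library. CACNA1G was higher, at 4.06 and 4.65 CPM against 0.563 and 0.674 (2.79 ± 0.36, adjusted p = 0.000306, edgeR), so that the day 6 dip of WT was shallower, and KCNJ2 was higher, at 4.84 and 5.02 against 1.82 and 1.61 (1.53 ± 0.29). In these libraries 6 of 8 cardiomyocyte markers were lower, with a median log2 change of -1.19 and sums of 6077 and 5652 CPM against 13082 and 10281, and their part was not tested. In each of the other marker lists at most 1 marker was higher and at most 1 lower.

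At day 10, 11 of 33 members were lower in ZEB2 shRNA cells and 1 higher, against 7.68% and 10.5% of all genes. ABCC9 was at 1.98 and 1.41 CPM against 14.1 and 13.7 in WT, a log2 change of -3.03 ± 0.35 (adjusted p = 0.00328, edgeR), and was the only member past the study's threshold (1.46% of all genes), which 0 members passed when any 1 of the 4 libraries was left out. SCN2B was at 0.185 and 0.427 CPM against 2.78 and 4.30 (-3.54 ± 0.76), CACNB2 at 19.1 and 15.3 against 102 and 96.1 (-2.54 ± 0.62) and KCNIP2 at 14.1 and 10.6 against 67.6 and 63.6 (-2.41 ± 0.39). KCNQ1 was at 4.79 and 3.63 CPM against 11.4 and 15.8 (-1.70 ± 0.35) and KCNN1 at 12.4 and 8.15 against 29.9 and 45.8 (-1.89 ± 0.44). CACNA1D, KCNJ5, KCNJ11, CACNA1C and KCNN2 fell by 0.87 to 2.05 on the log2 scale. HCN4 was at 99.0 and 77.3 CPM, below both WT libraries at 194 and 225, and did not pass. The spread in this fit is shared with the NKX2-5 shRNA libraries, which differed from each other in HCN4. TRPM4 was at 79.4 and 54.7 CPM against 72.3 and 97.4. KCNJ2 was the member that rose, to 14.2 and 15.3 CPM against 1.39 and 0.215 (4.03 ± 0.70). The count of 12 was 1 without ZEB2 shRNA replicate 3 or 4 or WT replicate 4 and 2 without WT replicate 3, and ABCC9 passed 5% FDR in each of these. In simulated day 10 counts, where a 2-fold change was put into known genes among 17002, 5.97% of them were recovered, and 64.2% at 4-fold. Cardiomyocyte markers summed to 5982 and 4115 CPM against 18411 and 15039, with 4 of 8 lower. Their median log2 change was -2.02, against -0.72 over the 33 members. Fibroblast and epicardial markers summed to 1371 and 1426 CPM against 294 and 359.9, with 3 of 4 higher and POSTN at 124 and 189 against 12.3 and 5.38. Hepatic and endoderm markers summed to 6429 and 7794 CPM against 3598 and 1465, with 4 of 6 higher, and endothelial markers to 36.0 and 46.8 against 28.2 and 7.42, with 2 of 4 higher. Erythroid and platelet markers summed to 5.50 and 7.94 CPM against 65.1 and 14.3, with 3 of 6 lower. The part of these lists in the channel values was not tested.

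**Figure D4:**
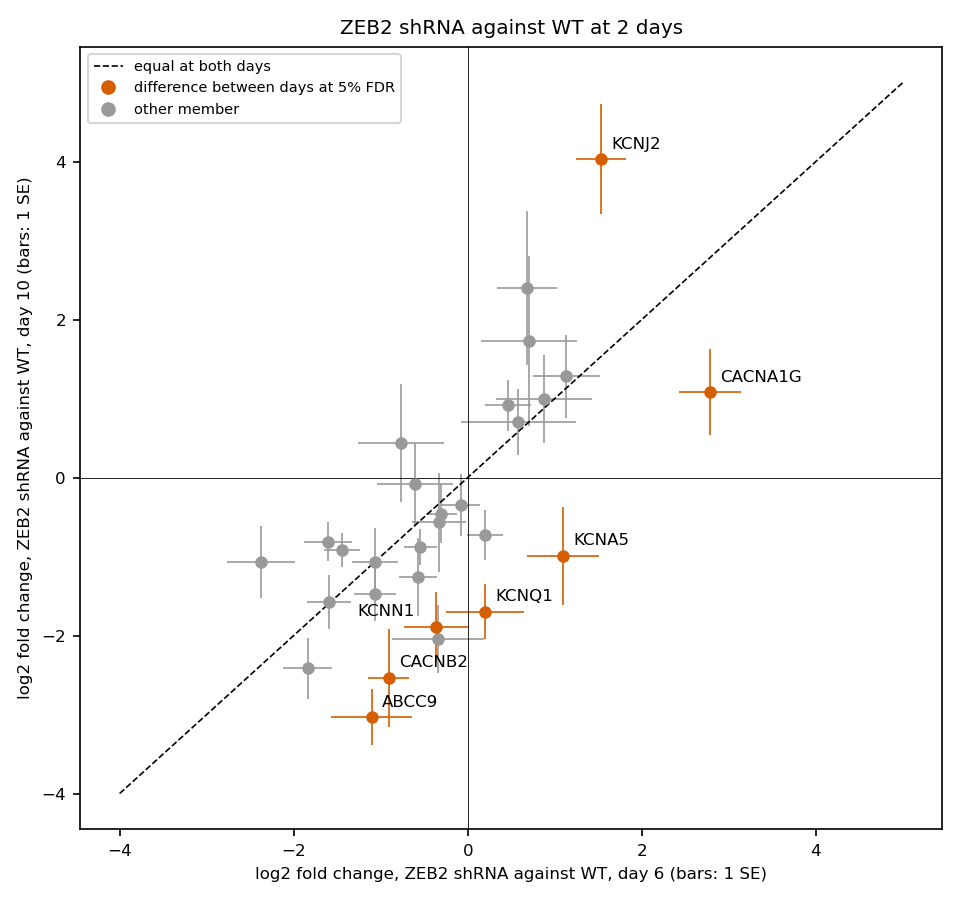
Log2 fold change of ZEB2 shRNA against WT at day 6 (x axis) and day 10 (y axis) for members tested at both days, with 1 SE bars and a dashed line where both are equal. The 7 orange genes differed between the days at 5% FDR, and KCNJ2 lies above the line and the other 6 below it.

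The difference between the days was tested directly, as an interaction in a fit of the WT and ZEB2 shRNA libraries of days 6 and 10. Of 32 members, 7 passed. The log2 difference from WT was lower at day 10 than at day 6 in 6 of them. It was higher in 1, against 6.66% and 8.07% of all genes. None passed the 8-fold threshold (0.989% of all genes), by edgeR, while 13 had an unadjusted p under 0.05. The decline of CACNB2 was already called at day 6, a call lost without at least 1 library, and it deepened by -1.66 ± 0.29. ABCC9, at 0.616 and 0.369 CPM in ZEB2 shRNA cells at day 6 against 1.47 and 0.890 in WT, did not pass at that day, and its difference from WT changed by -1.97 ± 0.53. KCNQ1, at 0.882 and 0.664 CPM in ZEB2 shRNA cells at day 6 against 0.867 and 0.577 in WT, changed by -1.92 ± 0.49, and KCNN1 by -1.53 ± 0.40. KCNA5, at 2.70 and 1.77 CPM against 1.13 and 1.03 at day 6 and at 0.772 and 0.939 against 1.86 and 1.51 at day 10, changed by -2.12 ± 0.57. The difference for CACNA1G changed by -1.71 ± 0.43, and that of KCNJ2 grew by 2.40 ± 0.58. For CACNA1G this was a smaller excess over WT, not a level below it. Its mean at day 10 was 2.24 CPM per kb in ZEB2 shRNA cells against 1.06 in WT, and it did not pass at that day. The count was 3 without ZEB2 shRNA day 10 replicate 3, 1 without ZEB2 shRNA day 10 replicate 4 or ZEB2 shRNA day 6 replicate 1, and 2 without WT day 6 replicate 2, and the CACNB2 difference passed in all of them.

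From day 0 to day 10, 26 of 33 members were higher and 3 lower within ZEB2 shRNA cells, against 39.3% and 38.8% of all genes. CACNA1C went from 3.45 and 2.81 CPM to 184 and 148, and KCNJ3 from 0.268 and 0.121 to 12.8 and 20.1. KCNJ2 stood at 14.2 and 15.3 CPM against 1.10 and 1.01 at day 0, a log2 change of 3.74 ± 0.19. Set directly against NKX2-5 shRNA cells at day 10, ZEB2 shRNA cells were higher at 19 of 33 members and lower at 4, against 10.8% and 10.6% of all genes, and 4 passed the study's threshold (1.94% of all genes). The higher ones include KCNJ12 (5.43 ± 0.84), KCNJ5 (4.19 ± 0.40), CACNA1C (3.75 ± 0.23) and KCNN2 (3.58 ± 0.26), and the lower ones were KCNK3, KCNE4, CACNA2D1 and KCNJ8. This count was 4 without ZEB2 shRNA replicate 3 and 10 without replicate 4, and CACNA1C, KCNJ5, KCNN2 and CACNA2D2 passed without each library.

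Differences between lines were already present at day 2 in the genes that WT cells switched on early. KCNJ2 was at 61.4 and 60.9 CPM in NKX2-5 shRNA cells, at 22.8 and 28.1 in WT, at 23.0 and 23.4 in ZEB2 shRNA and at 3.60 and 6.30 in ZNF503 shRNA cells. NKX2-5 shRNA cells were thus above WT by 1.24 ± 0.19 on the log2 scale, and ZNF503 shRNA cells below it by a log2 change of -2.50 ± 0.21, with no overlap between these groups. KCNJ5 was at 4.13 and 5.16 CPM in NKX2-5 shRNA and 1.72 and 1.98 in ZNF503 shRNA cells against 10.8 and 12.7 in WT, log2 changes of -1.38 ± 0.21 and -2.75 ± 0.22. KCNJ3 was at 1.33 and 0.702 CPM and at 0.584 and 0.630 against 3.89 and 4.42. ABCC9 was at 3.03 and 2.19 CPM in NKX2-5 shRNA and at 0.270 and 0.495 in ZNF503 shRNA cells against 4.63 and 5.15, the latter a log2 change of -3.93 ± 0.35. In all, 9 of 28 members were lower and 1 higher in NKX2-5 shRNA cells, against 13.6% and 13.0% of all genes (0 by the study's 4-fold threshold, against 1.19%, with 12 at an unadjusted p under 0.05 and 1 by the study's threshold in DESeq2), and 7 were lower and 3 higher in ZNF503 shRNA cells, against 13.7% and 13.1%. KCND2, KCNN2 and CACNA2D1 were the 3 higher ones. The NKX2-5 count of 10 was 6 without WT day 2 replicate 2. Both targets were at or below 1.96 CPM in WT at day 2, so the levels of the targeted genes do not show how far they were reduced in these libraries.

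**Figure D5:**
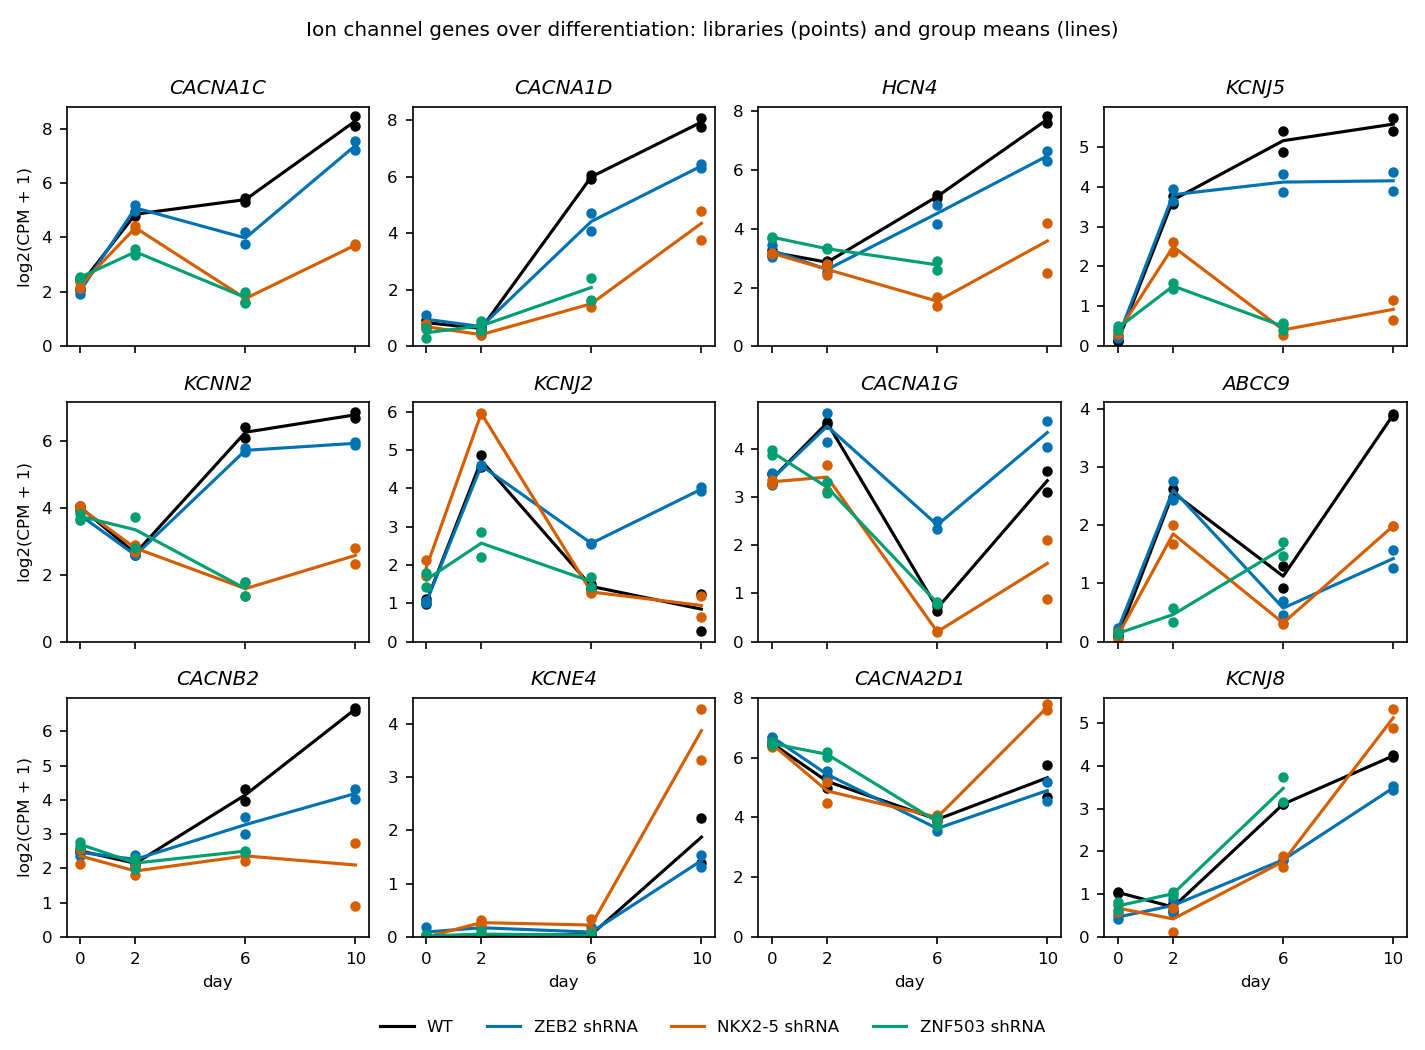
Level of 12 members as log2(CPM + 1) (y axis) by day (x axis) in WT (black), ZEB2 shRNA (blue), NKX2-5 shRNA (orange) and ZNF503 shRNA (green, to day 6) cells, with libraries as points and group means as lines. KCNJ2 peaks at day 2 in WT, highest in NKX2-5 shRNA at 61.4 and 60.9 CPM, and is back up at day 10 in ZEB2 shRNA, while CACNA1G is lowest at day 6 in every line.

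Before differentiation few members passed 5% FDR. At an unadjusted p under 0.05 by edgeR there were more of the 30: 7 in NKX2-5 shRNA, 2 in ZEB2 shRNA and 13 in ZNF503 shRNA cells. At day 0, 2 of 30 passed 5% FDR in NKX2-5 shRNA cells, 1 in ZEB2 shRNA and 3 in ZNF503 shRNA, against 15.9%, 3.93% and 7.49% of all genes. By the study's threshold for this day, 2-fold at 10% FDR, 4, 1 and 2 passed, against 4.03%, 2.21% and 2.57% of all genes. CACNA2D2 was at 6.06 and 8.37 CPM in NKX2-5 shRNA cells against 17.2 and 15.0 in WT (log2 change -1.17 ± 0.19), and KCNJ2 at 2.26 and 3.39 against 0.961 and 1.15 (1.41 ± 0.31), a call lost without NKX2-5 shRNA replicate 2 or either WT replicate. KCNJ8 in ZEB2 shRNA cells, and KCNE1, KCND2 and CACNA1G in ZNF503 shRNA cells, were lost as calls when any 1 of the 4 libraries was left out. For ZNF503 shRNA, DESeq2 called 4 members higher and 1 lower, where edgeR called 1 and 2.

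The 64 other channel subunits are given for comparison, and the difference between the lists was not tested. In NKX2-5 shRNA cells at day 10, 14 of 54 tested were higher and 15 lower, with a median log2 change of 0.16 against -2.22 over the members and 0.03 over all genes. In ZEB2 shRNA cells 11 were higher and 8 lower, with a median of -0.14 against -0.72 over the members. KCNA7, a Kv1 pore of heart and skeletal muscle, was at 8.45 and 7.42 CPM in WT at day 10, 1.02 and 0.853 in ZEB2 shRNA and 0 and 0.189 in NKX2-5 shRNA cells. KCNK12, a gene of the K2P potassium channel family, was at 0 and 0.430 CPM in WT, 5.59 and 3.50 in ZEB2 shRNA and 18.3 and 10.2 in NKX2-5 shRNA cells, and passed the test in both lines.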

How the data were processed

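Total RNA of 34 libraries was sequenced. Per the submitters' processing notes and the study's methods, the authors aligned reads to GRCh37 (hg19) with TopHat2 2.0.14, Bowtie2 2.2.1.0 and SAMtools 0.1.19.0 and counted them per RefSeq gene region. The deposited values are raw read counts per accession, and whether strand was used is not given in the sources used here. The 4 columns of WT and ZEB2 shRNA day 10 replicates 1 and 2 held 1077 more values than there are accessions and did not follow their order (median blockwise rank correlation with replicate 3 of 0.008 to 0.013, against 0.984 and 0.993 for replicate 4), so they were not used. Of 41627 accessions, 96.8% matched a gene symbol, and these held 97.1% of the counts.

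For each symbol the row with the largest total was kept. Counts were tested with edgeR 4.0.16 (TMM factors, filterByExpr, quasi-likelihood test, R 4.3.3) in 21 comparisons. Each was fitted within the line for time and within the day for lines, and p-values were adjusted by Benjamini-Hochberg over all genes that passed the filter. The groups of a fit shared a common estimate of spread. Each SE was calculated from the test, as the absolute log2 change divided by the square root of its F statistic. A call is 5% FDR, and the study's own thresholds (2-fold at 10% FDR on day 0, 4-fold at 10% on day 2, 8-fold at 1% on days 6 and 10) were applied beside it. The fits were tested on simulated counts. Alternatives were DESeq2 1.42.0, RLE factors, no filter, 1 fit of all 30 libraries, the replicate number as a block and leaving out each library. The row with the second largest total, no TMM factors and the comparison of WT day 10 with day 6 were chosen after seeing the data. The 34 members, the other lists, the motifs and the comparisons were chosen with earlier results of these data known. All 34 members are named, with a fold change only for a member at 5% FDR in that comparison, and at most 4 of the other channel subunits are named per comparison. Some of those subunits that met this rule are not reported here. Same-numbered libraries did not pair (19 pairs, correlation of deviations from the group means -0.129 to 0.118, 1 above 0.1). Replicates differed by more than sampling noise, with a chi-square per degree of freedom of 5.16 to 102.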

Additional observations from a re-analysis of the deposited data

Results flagged for a closer look

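A difference between the effect of ZEB2 shRNA at day 10 and at day 6 was found for 7 members by the interaction term of edgeR's quasi-likelihood test at 5% FDR, of 32 tested (14.7% of all genes passed). On the log2 scale the difference, day 10 minus day 6, was -1.97 for ABCC9, -1.71 for CACNA1G, -1.66 for CACNB2, -2.12 for KCNA5, 2.40 for KCNJ2, -1.53 for KCNN1 and -1.92 for KCNQ1. The CACNB2 difference passed without each of the 8 libraries in turn, and the other 6 did not pass without at least 1 of them. The cardiomyocyte marker sum in ZEB2 shRNA cells was 6077 and 5652 CPM at day 6 and 5982 and 4115 at day 10, against 13082 and 10281 and then 18411 and 15039 in WT. Its part in these differences was not tested. With 2 libraries in a group, no library could be tested as an outlier.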

How the results depend on the processing

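None of the 324 single-gene calls turned its direction under the alternatives that were run, and that of KCNA4 in NKX2-5 shRNA day 10 against day 0 had none left, with a log2 change of 0 without NKX2-5 shRNA day 10 replicate 2. In all, 3144 of 3453 values stayed past 5% FDR and 309 did not, 249 of these with a library left out. Without each library in turn, 228 of the 324 calls passed every time.

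Counts of members that moved by over 1.5 times were as follows, and the cause was not tested unless given. At day 0 the NKX2-5 count by the study's threshold went from 4 to a range of 1 to 2 with a library left out, and at 5% FDR from 2 to between 1 and 2. The ZEB2 count of 1 at day 0 became 0 with DESeq2, with 1 fit of all 30 libraries, without TMM factors and with the replicate block at 5% FDR, and 0 to 0 with a library left out under either rule. The ZNF503 count of 3 at day 0 became 5 with DESeq2, 8 with no filter, 1 in the fit of all libraries, 0 with the replicate block and 0 to 0 with a library left out. Its count of 2 by the study's threshold became 1 with DESeq2, no filter, the second row or the replicate block, 4 without TMM factors and 0 to 0 with a library left out. At day 2 the NKX2-5 count of 0 by the study's threshold became 1 with DESeq2, the fit of all libraries, the second row or no TMM factors and ranged from 0 to 3 with a library left out, and its count of 10 at 5% FDR became 4 in the fit of all libraries and ranged from 6 to 9. At day 10 the NKX2-5 counts of 28 and 12 ranged from 18 to 31 and from 5 to 16 with a library left out. The ZEB2 count of 12 became 20 in the fit of all libraries and ranged from 1 to 2, and that of 1 by the study's threshold became 3 with DESeq2, the fit of all libraries or the replicate block, 2 with no filter and 0 to 0 with a library left out. ZEB2 against NKX2-5 shRNA at day 10 ranged from 4 to 26 at 5% FDR, and its 4 by the study's threshold became 9 with DESeq2, 7 with no filter or no TMM factors and 8 in the fit of all libraries, ranging from 2 to 16. NKX2-5 against ZNF503 shRNA at day 6 ranged from 3 to 8 at 5% FDR, and from 0 to 1 by the study's threshold, with 0 under the replicate block. The day 10 minus day 6 count of 7 became 11 with no filter and ranged from 1 to 8, and from 0 to 1 by the study's threshold. DESeq2 and no TMM factors each called 2 members higher in that comparison, where 1 was called.

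Same-numbered libraries share only a number, and the replicate block moved no other count by over 1.5 times. Leaving out TMM factors moved the median of all genes by over 0.1 in 7 comparisons, to 0.21 for ZEB2 shRNA against WT at day 10, 0.27 for ZEB2 shRNA day 10 against day 0 and -0.13 for NKX2-5 shRNA against WT at day 2. The longest accession per gene was not run. Of 2-fold changes in simulated counts, 5.97% were recovered in the comparison of lines at day 10, 67.2% in that at day 6 and 73.1% in the WT course, and the parts of depth and of replicate spread in this were not separated.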

Other observations

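Among the 64 other channel subunits, the WT course from day 0 to day 10 held changes as large as those of the members. KCNIP4, a KChIP family gene, rose by 9.98 ± 0.41 on the log2 scale (edgeR, 5% FDR), and KCNA7 by 8.86 ± 0.63. In NKX2-5 shRNA cells at day 10, KCNH7, an ERG family gene, was lower than in WT by a log2 change of -5.85 ± 0.39 and SCN2A, a sodium channel pore of neurons, was higher by 6.39 ± 1.61. In ZEB2 shRNA cells at day 10, KCNH7 was at -3.32 ± 0.34, whereas KCNV1, a silent Kv subunit gene, was at 5.88 ± 0.84 and KCNC1, a Kv3 pore of neurons, at 7.98 ± 1.27.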
